A study of Mus musculus with 2 samples.

Results

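The imprinted microRNA genes Mir335, Mir483, Mir675, Mir296 and Mir298 were described in newborn mouse liver. They were chosen by symbol, as the microRNAs at the imprinted loci Mest, Igf2-H19 and Gnas, and all 5 were found among the 1973 microRNA genes of the count tables. The tissue was whole liver of strain B6NCrl at postnatal day 0, from pup 1 (replicate 1) and pup 2 (replicate 2) of 1 pregnant female, with 1 library per liver. The animals carried no stated allele and received no stated treatment, and their sex was not collected. The data therefore form 1 group of 2 animals, and there is no second genotype, age or tissue to compare it with. Since the strain is inbred, and each count covers a whole hairpin from either parental copy, the counts do not tell the paternal from the maternal copy. The parental copy named for each gene is background knowledge of its host locus in mouse.

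Genomic imprinting silences a gene on the copy inherited from a particular parent, through DNA methylation laid down in the germ line. Several imprinted genes control fetal and neonatal growth, and many of them are switched down in the liver after birth. Mest encodes a protein of the alpha/beta hydrolase family and is expressed from the paternal copy, as is Igf2, the main fetal growth factor. H19 is a long noncoding RNA that shares enhancers with Igf2 and is expressed from the maternal copy. Gnas encodes the stimulatory G protein alpha subunit, and its paternal antisense transcript Nespas has been described as the source of Mir296 and Mir298. A microRNA pairs with target messages mainly through its seed, bases 2 to 8 counted from the 5′ end.

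The annotated mature sequences of both arms are shown because their seeds differ at every arm. All are 5′ to 3′, from RefSeq on GRCm38.p6, with the seed in capitals.
miR-335-5p: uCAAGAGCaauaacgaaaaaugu
miR-335-3p: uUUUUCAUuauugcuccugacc
miR-483-5p: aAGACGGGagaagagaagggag
miR-483-3p: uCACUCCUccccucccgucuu
miR-675-5p: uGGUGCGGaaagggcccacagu
miR-675-3p: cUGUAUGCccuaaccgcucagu
miR-296-5p: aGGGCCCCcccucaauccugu
miR-296-3p: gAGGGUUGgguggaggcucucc
miR-298-5p: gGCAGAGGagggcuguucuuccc
miR-298-3p: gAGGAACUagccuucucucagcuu

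The 10 arms carried 10 distinct seeds. None of these seeds occurred in another of the 1738 mature mouse microRNAs of the RefSeq table, so no other gene of that table could be grouped with a member by seed. The neighbours Mir296 and Mir298 did not share a seed either. Of the 10 arms, 4 began with U: both arms of Mir335, miR-483-3p and miR-675-5p.

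The counted unit was the hairpin, so a count cannot be assigned to the 5p or the 3p arm. The hairpins of the 3 loci are shown with the mature arms in capitals, to give the stretch that each count covers.
Mir335: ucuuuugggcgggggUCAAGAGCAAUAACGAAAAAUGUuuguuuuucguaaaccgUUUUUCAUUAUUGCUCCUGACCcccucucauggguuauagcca
Mir483: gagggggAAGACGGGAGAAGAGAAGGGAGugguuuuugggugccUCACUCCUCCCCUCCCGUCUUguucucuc
Mir675: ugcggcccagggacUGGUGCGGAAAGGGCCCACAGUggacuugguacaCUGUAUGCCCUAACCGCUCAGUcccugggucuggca
Mir296: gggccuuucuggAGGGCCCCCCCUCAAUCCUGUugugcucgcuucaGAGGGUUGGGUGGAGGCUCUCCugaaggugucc
Mir298: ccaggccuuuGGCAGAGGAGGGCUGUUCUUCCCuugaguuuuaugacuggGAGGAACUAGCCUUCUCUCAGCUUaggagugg

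Mir335 was the AU-rich member, with 42.9% G and C in its hairpin and 30.4% in miR-335-5p. The other hairpins held 53.7% G and C (Mir298), 58.9% (Mir483), 63.1% (Mir675) and 63.3% (Mir296), against a median of 50% over the 312 detected genes (10 or more counts in each library). Across those 312 genes G and C content had a Spearman correlation of -0.03 with mean level, a description over genes that share the same libraries. No member shared a stretch of 20 bases, on either strand, with any other of the 2202 annotated microRNA hairpins that did not overlap it. Reads at several loci, which the tables leave off every gene, were 25.2% of the reads of replicate 1 and 24.7% of those of replicate 2. All ranks and shares given here thus cover uniquely mapped reads only. A microRNA with copies at several loci can stand too low in them, and the members correspondingly too high. How far this moves the ranks and shares was not tested.

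Replicate 1 held 3422622 counts on the strand of microRNA genes and replicate 2 held 4538427. Levels are counts per 1000000 of these totals (CPM), and each mean ± SD is over n = 2 pups. They are shares of reads: whether different sequences were captured equally well was not tested, and agreement between the pups does not address it. At this depth a gene with no count could still have stood at 0.877 CPM (replicate 1) or 0.661 CPM (replicate 2), the level of 3 counts. Intervals are exact Clopper-Pearson intervals at 95% and cover counting error only. The hepatocyte list, led by Mir122, held 35.8% and 36.9% of the counts in replicates 1 and 2, with all 5 of its genes detected. Of the other lists, endothelial Mir126a held 6.60% and 6.92%, the mesenchymal list 1.499% and 1.58%, the leukocyte list 0.872% and 0.801%, the erythroid list 0.531% and 0.515% and the pancreas list 0.195% and 0.211%. Mir143 alone stood at 13832 and 14617 CPM in the mesenchymal list, and Mir375 at 1924 and 2084 CPM in the pancreas list. In the leukocyte list, with entries for 3 of its 4 genes, Mir223 stood at 8567 and 7846 CPM. Mir122 stood at 342309 and 354939 CPM in the hepatocyte list. Each of these shares thus rests mostly on a single gene. Of the 5 neural genes in the table, 0 reached 10 counts in both libraries. The muscle list held 0.0136% (replicate 1) and 0.101% (replicate 2), from 1 detected gene of 5. The neural list and much of the muscle list are numbered copies of the same microRNA at several loci. Reads that match several copies are left off every gene, so these low values do not show absence. The part of these other cells in the members' levels was not tested. In such bulk tissue, fewer cells of a type and less microRNA per cell cannot be told apart.

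Mir335 had by far the highest read level of the members, followed by Mir483, and the Gnas pair and Mir675 lay much lower. The order Mir335, Mir483, Mir298, Mir296, Mir675 was the same in both pups. Of all microRNA counts, the members together held 2.92% (replicate 1) and 2.68% (replicate 2), or 2.80% ± 0.170 on average, and without Mir335 they held 0.567% ± 0.0234. For all 10 pairs of members the pups' values did not overlap, and the gap between the means exceeded the sum of the SDs, by 2.87 times for the closest pair, Mir298 and Mir296. With 2 animals, 0.5 is the smallest two-sided p that an exact permutation test by sign flips allows, so this order rests on the sizes. A microRNA read is a whole molecule, so levels were not divided by length in the main scale. Per 100 annotated hairpin bases the levels were 22826, 5846, 931, 602 and 191 CPM, in the same order.

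**Figure D1:**
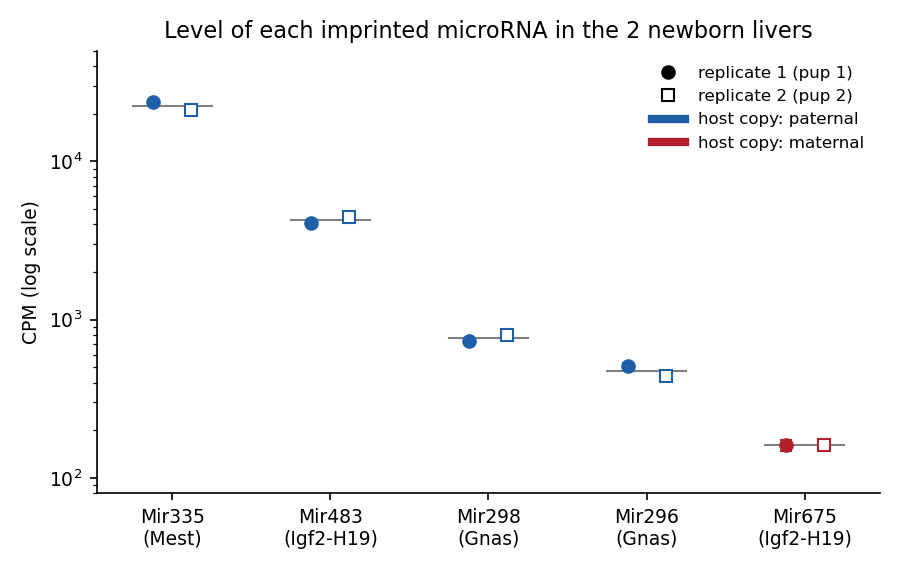
Level of each microRNA in CPM on a log axis, filled circles for replicate 1 and open squares for replicate 2, with exact 95% intervals (mostly smaller than the symbols), the mean as a grey line, and blue and red for a paternally and a maternally expressed host. The levels run from 22369 CPM for Mir335 to 160 CPM for Mir675, and the pups lie close together beside the gaps between genes.

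Mir335 lies at chr6:30741299-30741396 (mm10, plus strand), inside Mest and on its strand. It is intronic in all 7 annotated Mest transcripts that span it, most often in intron 2, and starts 17752 bases from the 5′ end of the annotated gene. In human breast cancer cells its product is known to restrain SOX4 and tenascin C. Its count was 81239 in replicate 1, a level of 23736 CPM (95% interval 23575 to 23898), and 95317 in replicate 2, a level of 21002 CPM (20870 to 21135). By uniquely mapped reads it ranked 7 in replicate 1 and 8 in replicate 2 among all genes. It made up 79.7% ± 2.06 of the counts of the 5 members. The nearest genes by mean level were Mir22 above it (27131 ± 1416 CPM) and Mir411 below it (20319 ± 2787 CPM), which differed from it by 0.28 and -0.14 on the log2 scale of the level. Mir22 was apart from Mir335 beyond the spread of the pups, whereas Mir411 was not: Mir335 stood at 1.29 times the Mir411 level in replicate 1 and 0.942 times in replicate 2. Mir411 shares a 20-base stretch with another locus, and its level is uncertain.

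Both microRNAs of the Igf2-H19 domain were present, and Mir483 at Igf2 exceeded Mir675 at H19 by more than an order of magnitude in each liver. Mir483 lies at chr7:142654924-142654996 (minus strand), 11820 bases from the 5′ end of Igf2, and is intronic in all 7 Igf2 transcripts that span it. It also lies in an intron of the overlapping annotated gene Gm49394. In human cells miR-483-3p is known to repress the pro-apoptotic gene BBC3. For Mir483 the count was 14039 in replicate 1, at 4102 CPM (4034 to 4170), and 20121 in replicate 2, at 4433 CPM (4373 to 4495). Replicate 2 was the higher one, and the gene ranked 36 and 31 in replicates 1 and 2. Mir15a above it (4422 ± 0.496 CPM) and Mir20a below it (4200 ± 675 CPM) were not apart from Mir483 beyond the spread of the pups.

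Mir675 lies at chr7:142577064-142577147 (minus strand), 996 bases from the 5′ end of H19 and 77.8 kb from Mir483. It is exonic in 3 and intronic in 1 of the 4 H19 transcripts that span it, in exon 1 of both 5-exon transcripts. In mouse placenta its release from H19 is known to limit growth, with Igf1r among its targets. Replicate 1 gave 549 counts of Mir675, at 160 CPM (147 to 174), and replicate 2 gave 727, at 160 CPM (149 to 172). The livers were level, with ranks of 156 and 159. Its neighbours by level, Mir450b (160 ± 18.1 CPM) and Mirlet7a-1 (159 ± 29.9 CPM), were not apart from it, and Mirlet7a-1 shares sequence with another locus. The count of Mir483 was 25.6 times that of Mir675 in replicate 1 (exact 95% interval 23.5 to 27.9) and 27.7 times in replicate 2 (25.7 to 29.8). These intervals overlap.

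**Figure D2:**
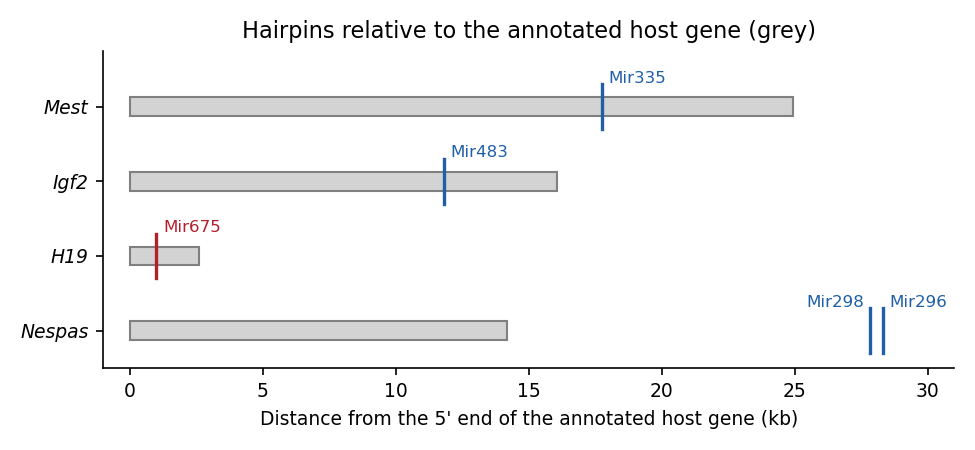
Distance of each hairpin from the 5′ end of the annotated host gene in kb, with the gene drawn to scale in grey along its own strand and the hairpins as blue (paternal) or red (maternal) lines. Mir335, Mir483 and Mir675 lie inside their hosts, and Mir298 and Mir296 lie 13652 and 14112 bases past the annotated end of Nespas.

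The Gnas pair was the weakest of the paternally expressed sources, at 1239 CPM in replicate 1 and 1239 CPM in replicate 2 for both hairpins together. Mir298 (chr2:174267504-174267585) and Mir296 (chr2:174267047-174267125) lie on the minus strand, the strand of Nespas, with 378 bases between them and Mir298 on the 5′ side. In the annotation used here neither hairpin is inside a Nespas or Gnas transcript. The nearest listed microRNA gene besides the pair, Gm27591, was at 0 in both libraries. In mouse cells miR-298 is known to repress Bace1, and in human endothelial cells miR-296 is known as a regulator of angiogenesis that targets HGS.

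Mir298 reached 728 CPM in replicate 1 (2492 counts; 700 to 757) and 799 CPM in replicate 2 (3625 counts; 773 to 825). Mir296 reached 511 CPM in replicate 1 (1749 counts; 487 to 536) and 440 CPM in replicate 2 (1997 counts; 421 to 460). Mir298 was thus lower and Mir296 higher in replicate 1, and no value of Mir298 overlapped one of Mir296. Their count ratio, Mir298 over Mir296, was 1.42 in replicate 1 (1.34 to 1.52) and 1.82 in replicate 2 (1.72 to 1.92), with intervals that do not overlap. The ratio of the pair thus differed between these libraries beyond counting error. The mean over the pups was 1.62 ± 0.276, so the size of the ratio was less settled than the order.

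By rank, Mir298 stood at 86 and Mir296 at 105 by mean level. Mir300 above Mir298 (851 ± 36.7 CPM) and Mir214 below it (700 ± 3.33 CPM) were apart from it beyond the spread of the pups. For Mir300 the margin was very narrow. Mir301 (479 ± 50.4 CPM) and Mir134 (468 ± 56.4 CPM), the neighbours of Mir296, were not apart from it. Across the 3 loci, Mir335 was 5.07 ± 0.705 times the Igf2-H19 pair, and the Igf2-H19 pair was 3.57 ± 0.190 times the Gnas pair.

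**Figure D3:**
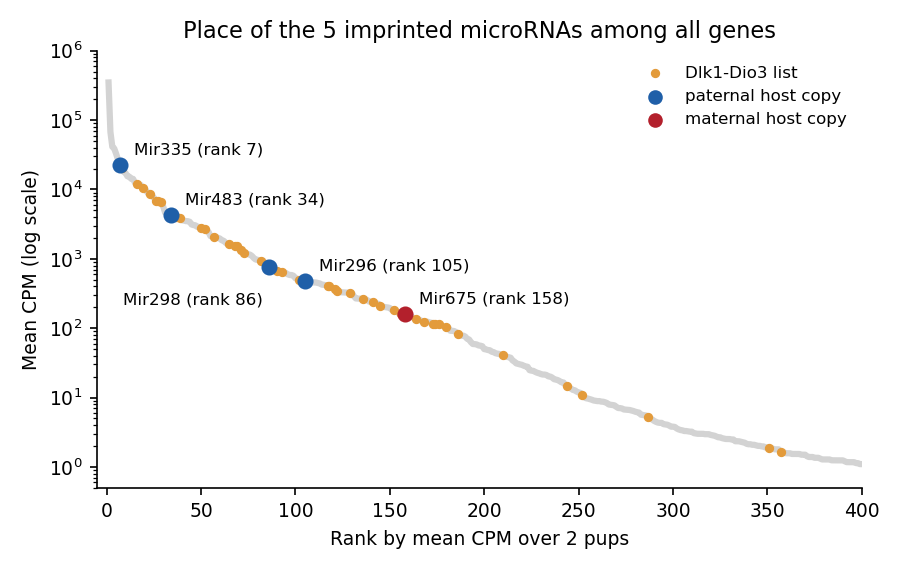
Mean CPM over both pups on a log axis against rank, for the 400 highest genes shown as a grey line, with the 5 imprinted microRNAs in blue (paternal) and red (maternal) and the Dlk1-Dio3 genes in orange. Mir335 stands at rank 7, Mir483 at 34, Mir298 at 86, Mir296 at 105 and Mir675 at 158.

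Grouped by the parental copy of the host, the 4 paternally expressed members held nearly all counts of the 5, at 99.5% in replicate 1 and 99.4% in replicate 2. Their summed level was 29077 CPM in replicate 1 and 26674 CPM in replicate 2, and it was 181 and 167 times the level of Mir675. Mir335 set most of this: without it the paternal sum was 5507 ± 234 CPM. The picture differs once the Dlk1-Dio3 domain is added, whose listed microRNAs were all taken as expressed from the maternal copy. Of a list of 60 names for that domain, 50 had an entry, 44 were detected in each library and 17 averaged 1000 CPM or more. The list held 9.81% of the counts in replicate 1 and 10.6% in replicate 2. With Mir675 added, the maternally expressed sum was 3.38 times the sum of the 4 paternally expressed members in replicate 1 and 3.97 times in replicate 2. Mir675 itself was 0.157% ± 0.00863 of the maternally expressed sum.

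No Dlk1-Dio3 gene had a higher mean than Mir335, 7 were above Mir483, 19 above Mir298, 22 above Mir296 and 33 above Mir675. The median of the list was 382 CPM, between the levels of Mir296 and Mir675. Of the 50 genes, 6 share a 20-base stretch with another locus, and without them the list held 7.31% ± 0.280 of the counts. Names without an entry are not in these sums, and the microRNAs of other imprinted domains were not analysed here. The 50 genes were added on the maternal side only, so the ratio of the sums is one-sided and covers the listed genes alone. They were checked by chromosome and position but not by strand. A gene on the opposite strand, with another parental copy, could therefore be in the maternal sum.

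**Figure D4:**
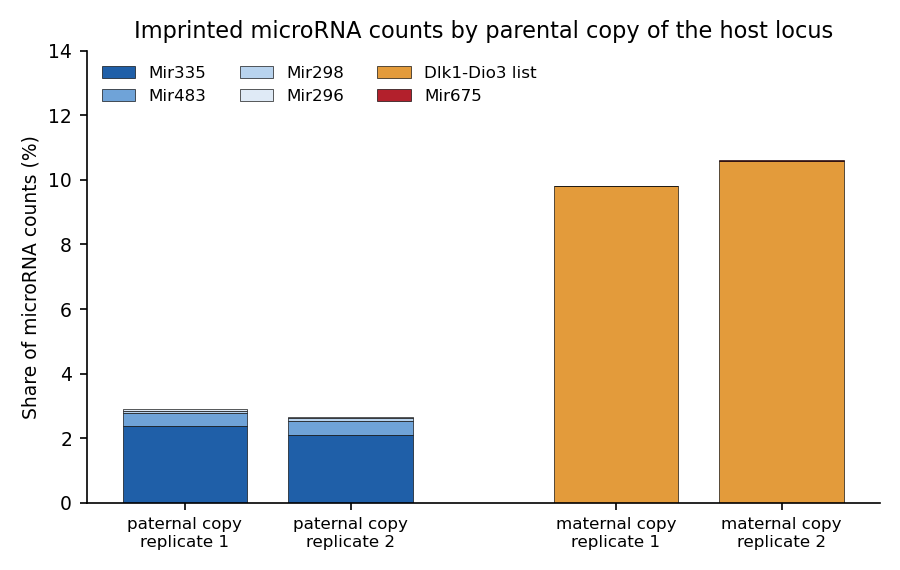
Share of microRNA counts in percent, stacked by gene, for hosts expressed from the paternal copy (left bars) and the maternal copy (right bars) in replicate 1 and replicate 2. The paternal bars reach 2.91% and 2.67%, mostly Mir335, and the maternal bars are almost entirely Dlk1-Dio3 genes, at 9.81% and 10.6%.

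The livers of pup 1 and pup 2 were then compared gene by gene, to show how closely the members repeat between littermates. For each of the 5 members, the levels in the pups lay within 1.2-fold. This was not particular to them: regardless of sign, their median log2 ratio was 0.13, beside 0.11 for genes with at least 500 counts in each library. Mir335 and Mir296 were higher in replicate 1, Mir483 and Mir298 were lower, and Mir675 was level. The test takes the summed count of a gene and both library totals as given, and it compares 2 libraries and not 2 conditions. By the two-sided exact binomial test, adjusted over 390 genes by the Benjamini-Hochberg method, 4 of the 5 members differed, against 30.3% of all genes tested. For the 160 genes that reached 500 counts in each library, to which all 5 members belong, the share was 57.5%, so such calls were frequent at this depth. By direction, 2 members were higher in replicate 1, against 14.4% of all genes and 30.6% of the well-counted ones. The 2 that were lower stand against 15.9% of all genes and 26.9% of the well-counted ones.

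Mir335 had a log2 ratio of replicate 1 over replicate 2 of 0.18 (exact 95% interval 0.16 to 0.19; exact binomial adjusted p = 1.12e-142). Mir296 had the largest ratio of the members, at 0.22 (0.12 to 0.31; exact binomial adjusted p = 3.02e-05). The ratio of Mir483 was -0.11 (-0.14 to -0.08; exact binomial adjusted p = 1.34e-11) and that of Mir298 was -0.13 (-0.21 to -0.06; exact binomial adjusted p = 0.00169). For Mir675 it was 0.00 (-0.16 to 0.16; exact binomial adjusted p = 1). Mir335 had the smallest p and the largest count of the members, although its fold difference of 1.13 was smaller than that of Mir296, at 1.16.

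A further test, the negative binomial exact test in edgeR, takes the spread of the livers as noise through a common dispersion. There, 0 of the 5 members were called, against 0.513% of the 390 genes. At an unadjusted p under 0.05 the number was also 0 of 5 in that test, against 12 of the 390 genes. Its unadjusted p was 0.425 for Mir296, the lowest of the members, and its adjusted p was 1 for every member. The biological coefficient of variation behind this test was 0.130. It was estimated from the same 2 libraries that the test compares, so the missing calls do not show that the livers matched. The coefficient of variation of a member over the pups was 10.6% for Mir296, 8.64% for Mir335, 6.54% for Mir298, 5.50% for Mir483 and 0.0951% for Mir675. For Mir675 the counting intervals are far wider than that spread, so its closeness cannot be read as precision. Regardless of sign, the median log2 ratio was 0.13 over the members and 0.11 over the 160 well-counted genes. In the Dlk1-Dio3 list, 4 of the 46 genes tested were higher and 17 lower in replicate 1 by the binomial test. The shares were 14.4% and 15.9% of all genes tested, and 30.6% and 26.9% of the well-counted ones. By the negative binomial test 0 genes of the list were called. The median log2 ratio of the list was -0.09, beside 0.0019 for the members and -0.0022 for all genes.

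**Figure D5:**
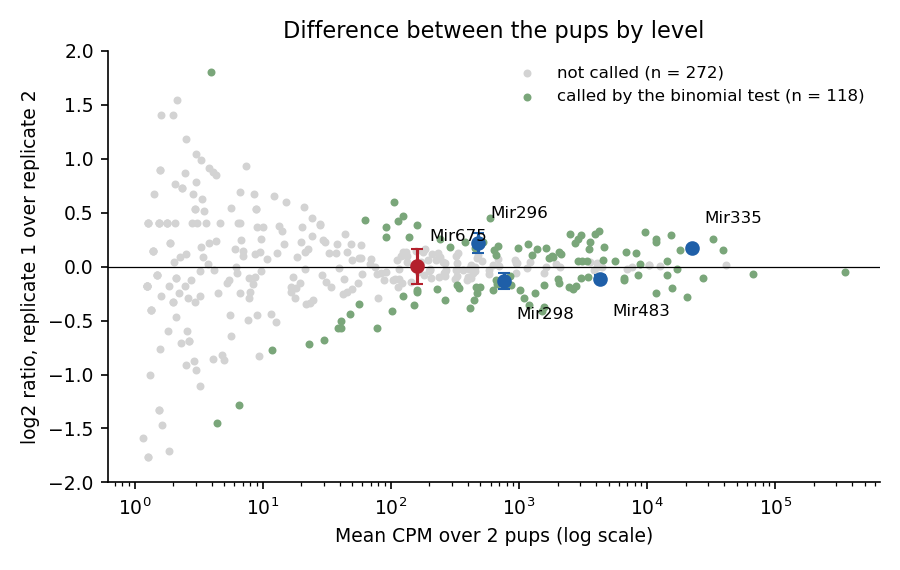
Log2 ratio of replicate 1 over replicate 2 against mean CPM (log axis) for the genes tested, grey where not called and green where called by the exact binomial test, with the members and their exact 95% intervals in blue (paternal) and red (maternal); 6 genes lie outside the vertical range of 2. The members lie between -0.13 and 0.22, amid genes of similar level.

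The opposite strand at the members was nearly silent. Mir335 had 1 opposite-strand read in replicate 1 and 1 in replicate 2, and the other members had 0 in both libraries. Over the whole table, opposite-strand reads at microRNA genes made up 4.44% of uniquely mapped reads in replicate 1 and 4.25% in replicate 2, in 62 genes. Counted without regard to strand, each member thus kept its count, apart from the added read of Mir335.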

How the data were processed

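MicroRNA sequencing of total RNA (inserts under 30 bases, per the labels) gave 1 library per liver. The authors deposited raw counts of reads for each microRNA gene, made on mm10 with annotation M4 of GENCODE, as a text beside each file states. Which aligner and counter they used is not given in the sources used here. The columns have no header. Gene-strand, opposite-strand and unstranded columns were inferred from the values: the column read as unstranded equals the sum of the other two in all 1973 gene entries of each library. The column with most counts was taken as the gene strand, which no source used here states. Unassigned reads, 8.87% and 9.92% of uniquely mapped reads in replicates 1 and 2, stayed out of library totals. Members were matched by Ensembl identifier to symbols in GENCODE M21, which names 1894 of 1973 identifiers. Sequences came from RefSeq on GRCm38.p6, the same assembly.

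CPM, exact intervals and binomial tests (genes whose counts summed to 10 or more, adjusted p at most 0.05) used Python 3.11.15 with SciPy 1.17.1. The negative binomial exact test used edgeR 4.0.16, and DESeq2 1.42.0 gave alternative size factors. A quasi-likelihood test was not possible with 1 group. Both tests were tested on simulated data. Named genes besides the members are the neighbours by mean CPM, the highest Dlk1-Dio3 gene, and Mir122 and Mir126a from the marker lists. Mir143, Mir223 and Mir375, which lead their marker lists, were named after their levels were seen. Gm27591 and Gm49394 were named after the annotation was seen. The members and lists were chosen with earlier results of these data known.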

Additional observations from a re-analysis of the deposited data

How the results depend on the processing

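The levels depend on the denominator more than on the scaling tool. The combined level of the 5 members was 28036 CPM, and it was 43027 CPM with Mir122 left out of the library totals, 25408 CPM over uniquely mapped reads and 30395 per 100 annotated hairpin bases. It moved by less than the spread between the pups under TMM or DESeq2 scaling and under unstranded counts. In either pup alone a value always lies within the SD of the 2, so those runs could not move. For the single members, 26 levels under the alternatives stayed within the spread between the pups, the runs in either pup alone among them. The other 14 moved beyond it, up without Mir122 or per length and down with the other denominators. Per 100 hairpin bases the ratio of paternally to maternally expressed members was 158 in place of 174, and the ratio of Mir483 to Mir675 was 30.6 in place of 26.6. The ratio of Mir298 to Mir296 was 1.56 per 100 hairpin bases in place of 1.62, within its spread. Unstranded counts could not change it, since neither gene had opposite-strand reads. By the binomial test, Mir335, Mir483, Mir296 and Mir298 kept their direction and their call under all 6 alternatives. The filters at 1 and at 100 counts over both libraries leave a log2 ratio unchanged. They could alter only the adjusted p, so the kept direction says nothing there. The log2 ratio of Mir675, which was not called, turned to -0.0022 with TMM, to -0.026 without Mir122 and to -0.00022 with unstranded counts. With at least 100 counts over both libraries the negative binomial test called 1 gene in place of 2. Without Mir122 it called 3. Leaving out a pup leaves no comparison between pups, so it was run for levels only. No paired analysis was possible because the series holds a single group. Depth limits Mir675 most, with 549 and 727 counts in replicates 1 and 2. With 2 littermates the spread of a level is itself poorly known.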
